A study of Mus musculus with 6 samples.

Results

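The platelet-derived growth factor (PDGF) genes comprise 4 ligand genes, Pdgfa, Pdgfb, Pdgfc and Pdgfd, and 2 receptor genes, Pdgfra and Pdgfrb. They were chosen by name, and all 6 were found among the 40879 gene symbols of each library. The libraries are labelled as primary hepatic stellate cells of wild-type male mice. The cells were kept for 24 h with APB-R3, an engineered IL-18 binding protein, or with vehicle, in 3 libraries each. APB-R3 is listed at 150 µg/ml in the series text but at 150 µg/kg in the sample protocol, so the unit of the dose is uncertain. The sources used here do not give the mouse strain, the age of the animals or the composition of the vehicle. The labels do not say whether the replicates are separate animals or cultures, so a p-value here speaks of the spread among these libraries alone, and that spread may be technical.

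PDGFs are dimers of disulfide-linked chains that bind and dimerize receptor tyrosine kinases. PDGF-A and PDGF-B are cut inside the cell by furin-like convertases, whereas PDGF-C and PDGF-D leave the cell as latent factors whose CUB domains are removed by extracellular proteases. The alpha receptor binds the A, B and C chains, and the beta receptor binds mainly the B and D chains. In the liver, PDGF-B acting on the beta receptor is a well-known mitogen and chemoattractant for activated stellate cells, and endothelial PDGF-B recruits pericytes to vessels.

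Each library counted fragments near the 3' end of transcripts. A level in CPM (counts of a gene scaled to the library total) therefore does not grow with transcript length. Whether the 3' ends of all genes were counted equally well was not checked, so levels of different genes can be compared only roughly. Library totals ran from 8323809 counts in APB-R3 replicate 1 to 10792531 in APB-R3 replicate 2. Both groups had a library that stood apart in some genes. APB-R3 replicate 1 had 260 CPM of the chemokine gene Cxcl2 and 36.5 CPM of Il1b, against 39.0 to 59.7 CPM and 0.476 to 2.28 CPM in the other 5 libraries. Vehicle replicate 2 had more hepatocyte RNA, with a summed level of 102 CPM over 12 hepatocyte markers against 7.69 to 17.1 CPM elsewhere.

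The ligand transcripts were abundant and the receptor transcripts scarce. Over the 6 libraries Pdgfb averaged 546 ± 32.7 CPM and Pdgfa 275 ± 66.8 CPM (SD, n = 6), above 98.1% and 95.5% of the 12776 tested genes. Pdgfd followed at 26.5 ± 3.10 CPM, above 55.0% of the tested genes. Pdgfra had 9.84 ± 2.30 CPM and Pdgfrb 8.12 ± 1.85 CPM, above 33.4% and 29.7% of the tested genes. Pdgfc was the lowest at 0.748 ± 0.419 CPM, above 0.110% of them. In every library the order was Pdgfb, Pdgfa, Pdgfd, the receptors and then Pdgfc. The receptors did not separate beyond their spread, with Pdgfra above Pdgfrb in 5 libraries and below it in vehicle replicate 2. The summed ligand level was 35.2 to 67.3 times the summed receptor level in APB-R3 libraries and 47.4 to 54.2 times in vehicle libraries.

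**Figure D1:**
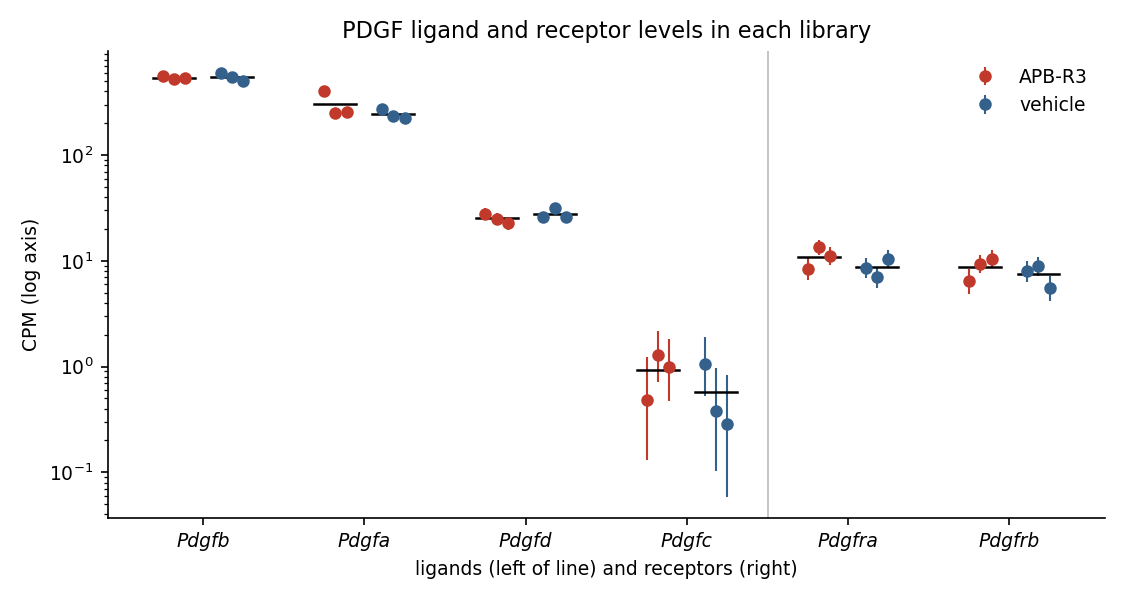
Levels of the 6 PDGF genes in CPM on a log axis, with APB-R3 libraries in red and vehicle libraries in blue. Points are libraries, bars through them exact 95% Poisson intervals for counting error only, and black lines group means. Pdgfb lay between 504 and 597 CPM and Pdgfa between 227 and 407 CPM, and the 2 receptors between 5.52 and 13.4 CPM.

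No PDGF gene passed the test of APB-R3 against vehicle. All 6 genes passed the low-count filter, 4 had a log2 fold change above 0 and 2 below, and their median was 0.27, against 0.0032 over all tested genes. By edgeR's quasi-likelihood test with Benjamini-Hochberg adjustment 0 of the 6 passed, as did 0 of 12776 genes (0%). At an unadjusted edgeR p under 0.05 there was 1 PDGF gene, Pdgfa, beside 425 of all tested genes (3.33%). With the DESeq2 Wald test 0 genes passed and 376 had an unadjusted p under 0.05, and with limma-voom 0 passed and 427 did. The CPM of the groups overlapped in all 6 PDGF genes, and did not overlap in 8.91% of the tested genes. Each PDGF gene had an adjusted p of 0.9998 in edgeR.

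Pdgfb, the B chain, was the steadiest of the 6. Its level was 567, 524 and 535 CPM in APB-R3 replicates 1 to 3, against 597, 548 and 504 CPM in vehicle replicates 1 to 3. The APB-R3 values all lay inside the range of the vehicle values. The means were 542 ± 22.1 CPM in APB-R3 and 549.9 ± 46.2 CPM in vehicle (SD, n = 3 each). The log2 fold change was −0.026 (SE 0.088), with a 95% interval from −0.21 to 0.16 that was not adjusted for the number of genes, or 0.865 to 1.11 as a fold. Its sign turned to 0.033 without vehicle replicate 1.

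Pdgfa, the A chain, had 1 library apart from the rest. Its level was 407, 252 and 257 CPM in APB-R3 replicates 1 to 3, against 274, 235 and 227 CPM in vehicle replicates 1 to 3. APB-R3 replicate 1 was thus 1.64 times the mean of the other 5 libraries, while APB-R3 replicates 2 and 3 fell within the vehicle range. The means were 306 ± 88.2 CPM in APB-R3 and 245 ± 25.6 CPM in vehicle (SD, n = 3 each). The log2 fold change was 0.31 (SE 0.14, 95% interval 0.026 to 0.60), with an unadjusted edgeR p of 0.0337 in the model fitted across all genes. The size of the error depended on the method. By the DESeq2 Wald test the log2 fold change was 0.32 with a larger SE of 0.26. With edgeR the SE was smaller without the low-count filter (0.096) and with a replicate block (0.090). The edgeR log2 fold change was 0.041 (SE 0.092) without APB-R3 replicate 1, and 0.022 (SE 0.099) without that library and vehicle replicate 2. The high Pdgfa value thus came from the library with the high Cxcl2 and Il1b levels, and the part of that library's state in the result was not tested.

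Pdgfd, the D chain, which becomes active when its CUB domain is removed, had 28.0, 25.0 and 22.6 CPM in APB-R3 replicates 1 to 3, against 25.8, 31.8 and 25.9 CPM in vehicle. The highest value was that of vehicle replicate 2, and the groups overlapped. Its log2 fold change was −0.15 (SE 0.15, 95% interval −0.47 to 0.17). It was −0.031 without vehicle replicate 2 and −0.24 without APB-R3 replicate 1.

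Pdgfc, the C chain, was close to the limit of counting. It had 4, 14 and 10 counts in APB-R3 replicates 1 to 3, against 11, 4 and 3 counts in vehicle, which equals 0.481, 1.30 and 0.993 CPM against 1.05, 0.378 and 0.286 CPM. The exact 95% Poisson intervals of the lowest libraries ran from 0.131 to 1.23 CPM in APB-R3 replicate 1 and from 0.059 to 0.834 CPM in vehicle replicate 3. These intervals cover counting error only, since nothing says that molecular identifiers were used. The log2 fold change of 0.69 (SE 0.79) had a 95% interval from −0.95 to 2.34, which leaves the sign of any change undetermined.

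Pdgfra, which encodes the alpha receptor and marks many fibroblasts, had 8.41, 13.4 and 11.1 CPM in APB-R3 replicates 1 to 3, against 8.63, 7.00 and 10.5 CPM in vehicle. APB-R3 replicates 2 and 3 lay above the vehicle range, while replicate 1 lay within it. The means were 11.0 ± 2.52 CPM in APB-R3 and 8.70 ± 1.74 CPM in vehicle (SD, n = 3 each), with a log2 fold change of 0.34 (SE 0.25, 95% interval −0.18 to 0.85). It ran from 0.16 without APB-R3 replicate 2 to 0.49 without vehicle replicate 3.

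Pdgfrb, which encodes the beta receptor and marks stellate cells and other pericytes, had 6.49, 9.36 and 10.4 CPM in APB-R3 replicates 1 to 3, against 7.96, 8.98 and 5.52 CPM in vehicle. APB-R3 replicate 1 and vehicle replicate 3 were the low libraries. The means were 8.76 ± 2.04 CPM in APB-R3 and 7.49 ± 1.78 CPM in vehicle (SD, n = 3 each), with a log2 fold change of 0.22 (SE 0.27, 95% interval −0.35 to 0.79). It was 0.39 without APB-R3 replicate 1, and 0.042 without vehicle replicate 3. It was 0.55 without APB-R3 replicate 1 and vehicle replicate 2. Each receptor rests on 54 to 145 counts per library, and the upper end of the interval as a fold was 1.80 for Pdgfra and 1.73 for Pdgfrb.

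**Figure D2:**
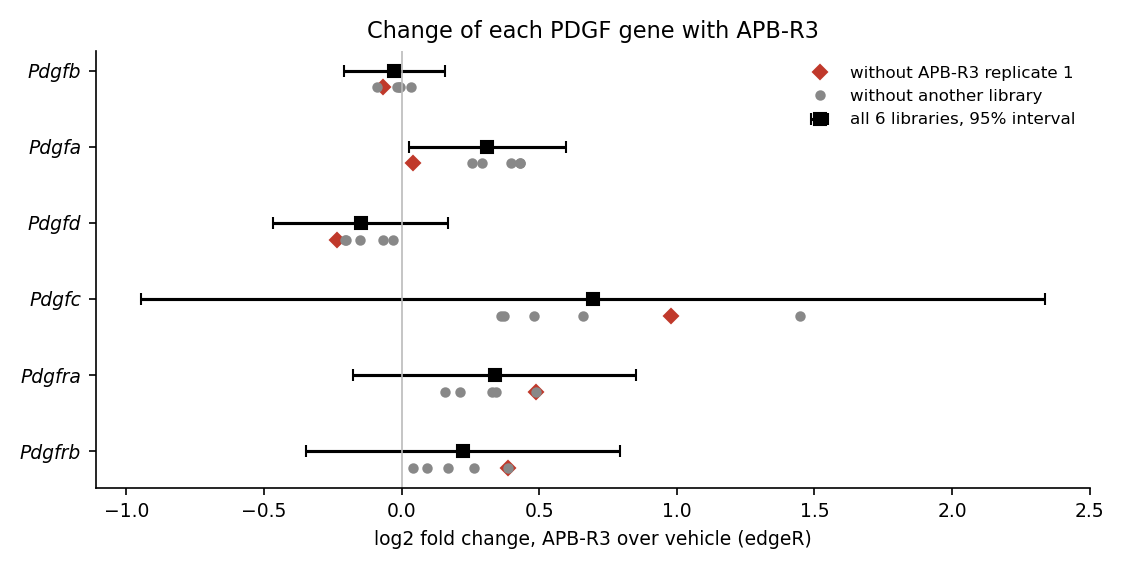
Log2 fold changes of the 6 PDGF genes, APB-R3 over vehicle, from edgeR. Squares with bars are values and 95% intervals from all 6 libraries, red diamonds values without APB-R3 replicate 1 and grey points values without 1 of the other libraries. Pdgfa moved to 0.041 without APB-R3 replicate 1, and the interval of Pdgfc spanned −0.95 to 2.34.

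The makeup of the ligand pool was also set side by side, as shares of the counts of the 4 ligands. Pdgfb took 56.5%, 65.3% and 65.6% in APB-R3 replicates 1 to 3, against 66.5%, 67.2% and 66.6% in vehicle. Pdgfa took 40.6%, 31.4% and 31.5% in APB-R3, against 30.6%, 28.8% and 29.9% in vehicle. The 95% Wilson interval of the Pdgfa share ran from 39.6% to 41.7% in APB-R3 replicate 1, and those of the other 5 libraries lay between 27.9% and 32.5%. These intervals too cover counting error only, not the spread between libraries. All 3 APB-R3 libraries had a higher Pdgfa share and a lower Pdgfb share than all 3 vehicle libraries. Pdgfa and Pdgfb made up most of the ligand counts, so these are not separate observations. The Pdgfa intervals of APB-R3 replicates 2 (30.4% to 32.4%) and 3 (30.5% to 32.5%) overlapped those of vehicle replicates 1 (29.6% to 31.5%) and 3 (28.9% to 30.9%). They did not overlap that of vehicle replicate 2 (27.9% to 29.8%). How often such shares separate for other genes was not computed. The mean Pdgfb share was 62.5% ± 5.15 in APB-R3 and 66.8% ± 0.417 in vehicle (SD, n = 3 each), a difference of −4.30 percentage points that was −1.33 without APB-R3 replicate 1. These shares were not tested, because they are made from the chosen genes. Pdgfd took 2.77% to 3.12% in APB-R3 libraries and 2.87% to 3.90% in vehicle libraries, and Pdgfc 0.0479% to 0.162% and 0.0377% to 0.117%.

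Among the counts of the 2 receptors, Pdgfrb took 43.5%, 41.1% and 48.4% in APB-R3 replicates 1 to 3, against 48.0%, 56.2% and 34.5% in vehicle. The vehicle libraries enclosed all APB-R3 values. The means were 44.3% ± 3.73 in APB-R3 and 46.2% ± 10.9 in vehicle, and the difference of −1.91 percentage points turned to 3.08 without vehicle replicate 2.

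**Figure D3:**
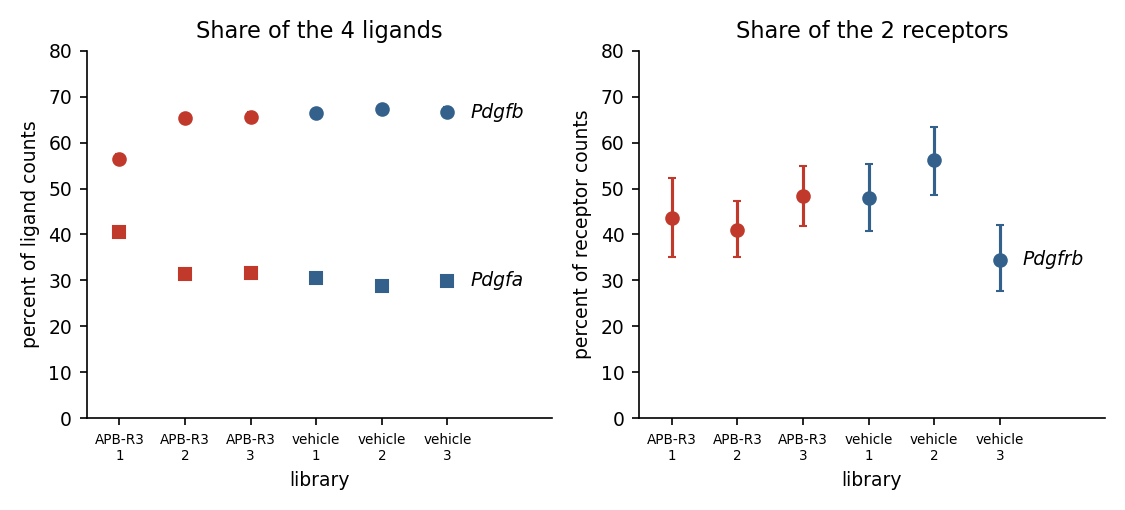
Shares of PDGF counts in each library in percent, with APB-R3 libraries in red and vehicle libraries in blue. The left panel gives Pdgfb (circles) and Pdgfa (squares) among the 4 ligands, the right panel Pdgfrb among the 2 receptors, with 95% Wilson intervals for counting error only. APB-R3 replicate 1 stood apart on the left, with 56.5% Pdgfb and 40.6% Pdgfa.

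The labelled cell type was compared with marker genes. Of 18 stellate cell and pericyte markers 14 were tested, and the median level of all 18 was 5.31 CPM, close to the receptor genes. The levels within the list were far apart. The pericyte gene Cspg4 and the listed genes Ngfr, Vtn and Gdf2 were below the low-count filter. Lrat, the retinol esterifying enzyme of quiescent stellate cells, had 1.68 CPM, the intermediate filament gene Des 4.70 CPM, the matrix protein gene Reln 11.5 CPM and the transcription factor gene Hand2 10.1 CPM. Most of the summed level came from other members, with 139 CPM for the potassium channel gene Kcnj8, 126 CPM for Nes, which encodes the intermediate filament nestin, 72.8 CPM for the matrix protein gene Ecm1, 46.6 CPM for the growth factor gene Hgf and 40.0 CPM for the channel regulator gene Abcc9. The 14 endothelial markers had a median of 338 CPM, between the levels of Pdgfa and Pdgfb. The endothelial list was thus far above the stellate and pericyte list in median level, although the libraries are labelled as stellate cells. The macrophage list, 13 genes including those of Kupffer cells, was also above the stellate and pericyte list, at 36.9 CPM in median level. Its sum was 496 to 708 CPM in APB-R3 libraries and 423 to 609 CPM in vehicle libraries. Only in vehicle replicate 3 was it below the stellate and pericyte sum, at 423 against 461 CPM. The PDGF levels can therefore not be read as those of stellate cells alone. Which cells of the cultures these transcripts came from was not tested. In such bulk samples fewer cells of a type and less RNA per cell cannot be told apart.

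The 10 markers of activated stellate cells and myofibroblasts had a median level of 73.2 CPM. Their sum ran from 721 to 916 CPM in APB-R3 libraries and from 855 to 943 CPM in vehicle libraries, with the lowest value in APB-R3 replicate 1. All 10 were tested, 5 were above and 5 below 0, and their median log2 fold change was −0.0091, against 0.0032 over all tested genes. That median turned to 0.056 without APB-R3 replicate 2. By edgeR 0 passed, while 3 had an unadjusted p under 0.05, beside 3.33% of all tested genes. These were Acta2, the smooth muscle actin of myofibroblasts, at −0.43 (SE 0.11), the matrix protein gene Postn at −0.52 (SE 0.24) and the collagen gene Col1a2 at −0.25 (SE 0.11). The groups did not overlap in 3 of the 10, beside 8.91% of all tested genes. In Acta2 and Postn the APB-R3 libraries lay below the vehicle libraries, and in Timp1, a metalloproteinase inhibitor gene, above them.

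The summed stellate and pericyte markers ran from 479.6 to 509.9 CPM in APB-R3 libraries and from 461 to 485 CPM in vehicle libraries, and 9 of the 14 tested had a log2 fold change above 0. The summed endothelial markers ran from 6877 to 7776 CPM in APB-R3 libraries and from 7218 to 7986 CPM in vehicle libraries, with 10 of 14 below 0. Per 1000 counts of these endothelial markers there were 68.8 to 82.4 counts of Pdgfb in APB-R3 libraries and 63.2 to 82.7 in vehicle libraries. For Pdgfa the ranges were 33.1 to 59.2 in APB-R3 libraries and 28.4 to 38.0 in vehicle libraries, the highest again in APB-R3 replicate 1. That library had the lowest endothelial sum. Of the platelet and megakaryocyte markers, which mark a known store of PDGF, Pf4 had 19.8 CPM and Itga2b 6.53 CPM. The other 8 had at most 0.485 CPM, with Gp6 at 0. Their sum was 25.5 to 33.3 CPM in APB-R3 libraries and 21.5 to 27.0 CPM in vehicle libraries. The part of these markers in the PDGF values was not tested.

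**Figure D4:**
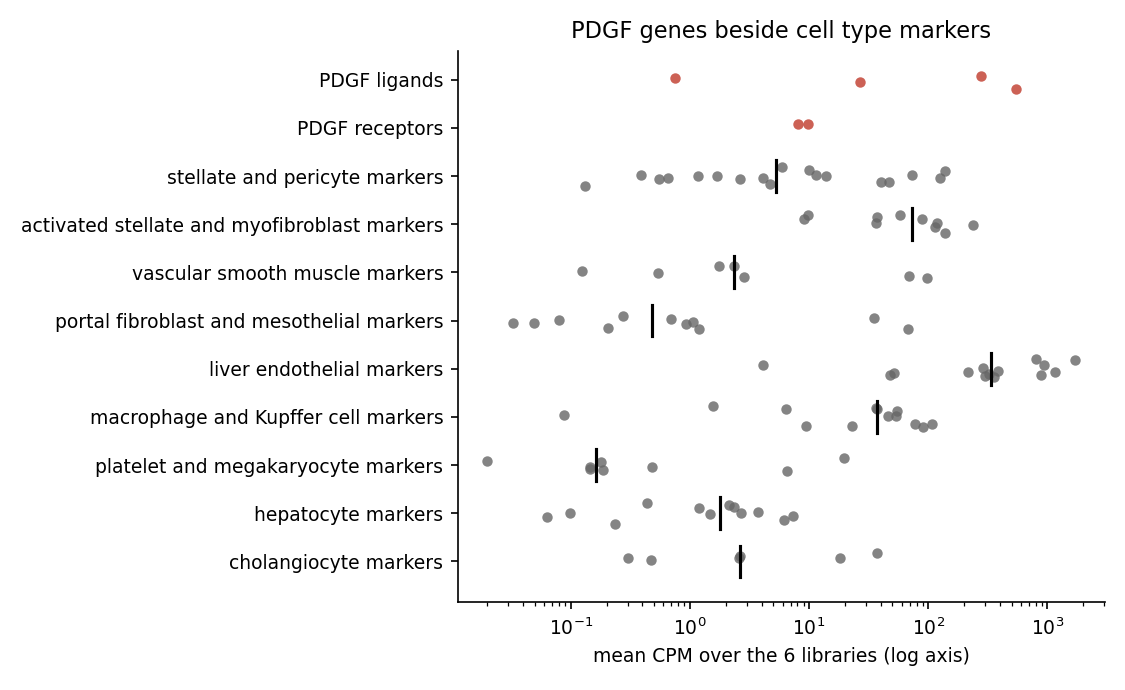
Mean level over the 6 libraries, in CPM on a log axis, of the PDGF genes (red) and of marker genes of 9 cell types or states (grey), 1 point per gene. Black lines are medians over each list, and genes with no count are not drawn. The ligands Pdgfb and Pdgfa lay among the endothelial markers (median 338 CPM), and both receptors near the median of stellate and pericyte markers (5.31 CPM).

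Genes that act with PDGF outside its ligands and receptors were described in 6 lists with 94 entries. Of these 89 were tested, 42 with a log2 fold change above 0 and 47 below, and their median was −0.0071. By edgeR 0 passed at an adjusted p under 0.05, and 2 had an unadjusted p under 0.05, which is 2.25% against 3.33% of all tested genes. The groups did not overlap in 12 of the 89, or 13.5%, against 8.91% of all tested genes.

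Of the 14 genes that activate, bind or retain the ligands, 13 were tested, 6 above and 7 below 0. Furin, a convertase that processes the A and B chains, had 179 ± 13.8 CPM in APB-R3 and 182 ± 17.3 CPM in vehicle (SD, n = 3 each). The related convertase genes Pcsk5 and Pcsk6 were low, with 0.688 ± 0.0366 and 2.11 ± 0.477 CPM in APB-R3, against 1.43 ± 0.253 and 1.71 ± 0.655 CPM in vehicle. Pcsk5 had a log2 fold change of −1.05 (SE 0.67), with all 3 APB-R3 libraries below all 3 vehicle libraries, and 65 counts in all. Plat, whose product tissue plasminogen activator releases active PDGF-C, had 17.1 ± 1.93 CPM in APB-R3 and 16.7 ± 1.39 CPM in vehicle. Plau, whose product urokinase releases active PDGF-D, had 36.6 ± 6.91 and 36.9 ± 5.53 CPM in the same order. St14, which encodes the protease matriptase, was below the filter with 19 counts in all.

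Sparc, a matrix protein that binds PDGF-B, was above 99.9% of the tested genes in level, at 6162 ± 134 CPM in APB-R3 and 6396 ± 405 CPM in vehicle. Nrp1, a co-receptor of several growth factors, had 483 ± 11.2 CPM in APB-R3 and 502 ± 38.0 CPM in vehicle. The endocytic receptor gene Lrp1 had 61.7 ± 12.7 CPM in APB-R3 and 58.9 ± 7.67 CPM in vehicle. The remaining members, Thbs1 and A2m, which encode secreted proteins that can bind PDGF, and Hspg2, Ndst1 and Ext1, of heparan sulphate proteoglycans, had log2 fold changes from −0.075 for Hspg2 to 0.16 for Ext1. None of the 5 had groups that separated. Of the 13 tested genes of this list 0 passed in either direction.

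Receptor-proximal signalling genes, the adaptors and kinases that dock on the activated receptors, had 6 members above and 15 below 0 of 21 tested, with a median log2 fold change of −0.10 that ran from −0.11 to −0.040 over the alternative settings. The smallest p were those of the adaptor gene Shc1 at −0.27 (SE 0.12), of Plcg1, the phospholipase of the receptor complex, at −0.93 (SE 0.48), and of the docking protein gene Gab1 at −0.31 (SE 0.17). In all of these the APB-R3 libraries lay below the vehicle libraries and none passed. Shc1 had 42.5 ± 0.320 CPM in APB-R3 and 50.9 ± 5.94 CPM in vehicle, Plcg1 1.80 ± 0.771 and 3.46 ± 0.391 CPM, and Gab1 16.9 ± 1.95 and 20.8 ± 1.16 CPM.

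Further down, 11 of 17 genes of the Ras-MAPK and Akt cascades were above 0 and 6 below, with a median of 0.037. Mapk3, the kinase ERK1, differed by 0.11 on the log2 scale (SE 0.099), and Foxo3, a transcription factor gene, by −0.11 (SE 0.12). Negative regulators were split into 7 above and 11 below 0 of 18 tested, with a median of −0.041 that turned to 0.017 without vehicle replicate 3. Acp1, a small phosphatase that acts on the PDGF receptor, had 32.8 ± 1.52 CPM in APB-R3 and 40.9 ± 1.97 CPM in vehicle, a log2 fold change of −0.33 (SE 0.13) that did not pass. Dusp4, a MAP kinase phosphatase, stood at −0.12 (SE 0.11) and Spry2, a feedback inhibitor of receptor tyrosine kinases, at −0.15 (SE 0.13).

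Early genes that growth factors induce had 9 members above and 5 below 0 of 14 tested, with a median of 0.085. That median turned to −0.015 without APB-R3 replicate 1 and vehicle replicate 2. Fos had 6.72 ± 1.72 CPM in APB-R3 and 4.38 ± 0.847 CPM in vehicle (log2 fold change 0.61, SE 0.32), and Ier3 875 ± 37.8 and 777 ± 54.8 CPM (0.17, SE 0.086), both with APB-R3 libraries above all vehicle libraries. Jun lay the other way, at 248 ± 19.9 CPM in APB-R3 and 273 ± 4.19 CPM in vehicle (−0.14, SE 0.089), also without overlap. Of the genes of related class III receptors and their ligands, 6 of 7 were tested, 3 above and 3 below 0. Kit, the stem cell factor receptor, had 241 ± 13.1 CPM in APB-R3 and 259 ± 3.69 CPM in vehicle, Csf1r, the macrophage growth factor receptor, 47.8 ± 9.71 and 43.8 ± 8.47 CPM, and Flt3l, the ligand of FLT3, 4.27 ± 2.11 and 6.02 ± 2.57 CPM. Both of these receptors were thus above Pdgfra and Pdgfrb in level.

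**Figure D5:**
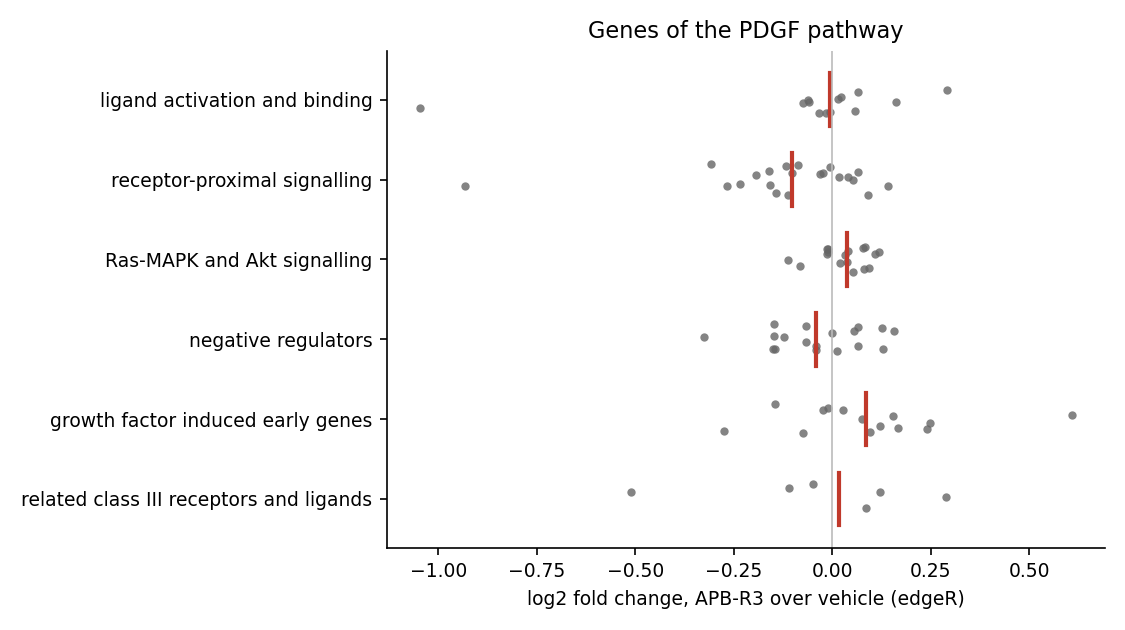
Log2 fold changes, APB-R3 over vehicle by edgeR, of the 89 tested genes of 6 lists around PDGF signalling, 1 point per gene. Red lines are list medians, which ran from −0.10 for receptor-proximal signalling to 0.085 for early genes. No gene drawn here passed.

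For the ligand and the receptor with the highest mean level, the genes most like them in pattern over the 6 libraries were looked up. The search covered tested genes with at least 20 CPM, leaving out predicted genes with Gm or Rik names. The measure was the root mean square difference of log2 CPM after centring each gene on its own mean. For Pdgfb the nearest of 6528 genes were Cask, a membrane scaffold kinase (0.0216), Ptpre, a tyrosine phosphatase (0.0251), and the noncoding RNA Snhg8 (0.0286), against a median of 0.148. For Pdgfra the nearest of 6529 were the transcription factor gene Gmeb1 (0.0852), the Argonaute gene Ago1 (0.0966) and G6pc3, a glucose-6-phosphatase (0.0985), against a median of 0.312. Pdgfra itself lay below 20 CPM, and its own root mean square deviation from its mean was 0.291, near that median. With so many genes and 6 libraries, near matches of this kind are a description of these libraries only.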

How the data were processed

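Libraries of 3' end fragments were made with a Lexogen QuantSeq kit from 500 ng of total RNA, per the labels' protocols. Per the submitters' processing notes, the tools were bcl2fastq 2.20.0.422, fastp, STAR and HTSeq and the build GRCm39. For the other versions, the options and the strand setting, nothing is stated in the sources at hand. The authors deposited whole-number counts of reads per gene symbol, not normalized. The header inside each file carries another number than the library's title, and titles were used. The 6 PDGF genes, the gene lists and the settings were chosen with earlier results of these data known.

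APB-R3 was set against vehicle in R 4.3.3 with edgeR 4.0.16, filterByExpr defaults (minimum count 10, minimum total 15), TMM factors (0.989 to 1.02), glmQLFit and glmQLFTest, treatment as the only term, and Benjamini-Hochberg adjustment over 12776 genes at 0.05, two-sided. Standard errors are the log2 fold change over the square root of F. CPM use plain library totals. Named genes are the 6 PDGF genes, all genes of the ligand list, up to 4 passing or else the 3 smallest p of each other list, and the 3 nearest patterns. Some genes that the rule names are left out of the text. The scripts were tested on simulated data. No library was a copy of another (chi-square of pairs per degree of freedom 5.54 to 13.6 over genes with at least 20 counts). Alternatives, also with DESeq2 1.42.0 and limma 3.58.1, are given in the closing section. The labels give no batch or date.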

Additional observations from a re-analysis of the deposited data

How the results depend on the processing

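The test across genes, the log2 fold changes of the PDGF genes and the list medians were recomputed under 14 alternative settings, namely no filter on low counts, a filter of 5 CPM in 3 libraries, size factors of DESeq2, no factor beyond the library total, the DESeq2 Wald test, limma-voom, a replicate block, each library left out in turn, and APB-R3 replicate 1 and vehicle replicate 2 left out together. The Pdgfb and Pdgfrb shares were recomputed under the 7 of these that leave out libraries, and the other shares and ratios under none. None of the 6 PDGF genes passed in any of them. Pdgfc was below the filter of 5 CPM and has no value there. Of 83 log2 fold changes of PDGF genes 82 kept their sign, and that of Pdgfb turned to 0.033 without vehicle replicate 1. Over all settings the values ran from 0.022 to 0.43 for Pdgfa, −0.088 to 0.033 for Pdgfb, 0.36 to 1.45 for Pdgfc, −0.24 to −0.031 for Pdgfd, 0.16 to 0.49 for Pdgfra and 0.042 to 0.55 for Pdgfrb. The lowest adjusted p of Pdgfa was 0.566. The count of genes called over the whole series was 20 with no low-count filter, and 0 to 1 with 1 library left out (1 without vehicle replicate 3). None of the called genes was a PDGF gene or a member of the 6 pathway lists, and the cause of these counts was not tested. The titles number the libraries 1 to 3 in both groups. Deviations of same-numbered libraries from their group means had correlations across genes of 0.0225, 0.0270 and 0.0480, all under 0.1. For libraries of different number in the 2 groups they ran from −0.0265 to −0.0031. Each library was thus most like the one of the other group with its own number. The main fit did not take the numbers as pairs, and whether they are pairs was not settled. With the replicate block 0 genes passed, with 539 at an unadjusted p under 0.05 against 425 without it. Of 210 list medians 185 moved by less than 1 SD between libraries and 25 by more. Some list medians also changed sign. That of the ligand activation and binding genes did so in 6 of 14 settings, and that of the related class III genes in 5. The medians of stellate and pericyte, vascular smooth muscle, and portal fibroblast and mesothelial markers did so in 3 settings each. Those of the other lists did so in 0 to 2.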

Other observations

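The excess of Pdgfa in APB-R3 replicate 1 was set beside that of other genes, after its value was seen. Among the 1983 tested genes with a mean of at least 100 CPM, 0 had a larger ratio of APB-R3 replicate 1 to the mean of the other 5 libraries than the 1.64 of Pdgfa, and the next was that of the junction gene Jup at 1.59. No other library had a gene at that level with a ratio as large. Among the 3823 genes with at least 50 CPM, 4 had a larger ratio in APB-R3 replicate 1, namely Cxcl2, Il1rn, Mars1 and Mmp13, with 5.44 for Cxcl2. Among all tested genes 3.12% had a larger ratio in that library, and 14 of those genes had at least 20 CPM. Other libraries also had genes with ratios as large at these lower levels. With at least 50 CPM there was 1 in vehicle replicate 3. With at least 20 CPM there were 3 in vehicle replicate 3, and 1 each in vehicle replicate 1 and APB-R3 replicate 3.

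Pdgfrl, a receptor-like gene outside the 6 chosen, had 1, 17 and 12 counts in APB-R3 replicates 1 to 3 and 22, 21 and 6 counts in vehicle replicates 1 to 3, so its lowest library was the one with the highest Pdgfa level.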
